A study of Homo sapiens with 9 samples.

Results

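The genes described here are the suppressors of cytokine signaling SOCS1 to SOCS6, their relative CISH, and IL6ST, which encodes the receptor chain gp130. They were chosen by symbol, each gene identifier once, and all 8 were found among the 62710 genes of the table. Poly(A) RNA was sequenced from wild-type HT-29 cells, an epithelial line from a human colon adenocarcinoma, so all groups share 1 cell line. One group received no stimulus, another ADP-heptose, a bacterial sugar nucleotide sensed by the kinase ALPK1, and the last flagellin, the bacterial protein sensed by TLR5, in both cases at 500 ng/mL and for 2.5 h. Each group had 3 libraries, described by the study as independent experiments.

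Cytokines of the interleukin-6 family signal through gp130, which pairs with a cytokine-specific chain and activates JAK kinases bound to its tail. The JAKs phosphorylate STAT factors, which move to the nucleus and switch on target genes. SOCS3, SOCS1 and CISH are classic targets of this kind: their proteins bind phosphorylated receptors or the JAKs themselves and shut the signal off, and their SOCS box recruits a ubiquitin ligase. SOCS4, SOCS5 and SOCS6 carry the same box but are mainly linked to receptor tyrosine kinases such as the EGF receptor and KIT.

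Total counts ranged from 50054773 to 58272772 in the ADP-heptose libraries, from 30770448 to 38304035 after flagellin and from 35040844 to 37537705 without stimulation. The cells carried their signature of colon epithelium: 8 of 10 colon epithelial markers reached a CPM (counts scaled to the library total) of 1 in every library, but CDX1 did not exceed 0.237 CPM and CDX2 ranged from 0.292 to 1.40. Their summed level was 8468 to 8819 CPM without ADP-heptose and 8643 to 11248 with it. The markers KRT8 and KRT18 reached their highest CPM, 5828 and 2608, in ADP-heptose replicate 3, the library set apart below. A change of these markers was not tested. Of the leukocyte markers only LYZ reached a CPM of 1 throughout (340 to 449). Of the fibroblast markers only COL1A1 did (12.7 to 17.5), and no endothelial marker did. In such bulk libraries a change in the share of cells that express a gene and a change in RNA per cell cannot be told apart. One library stood apart, ADP-heptose replicate 3: the SD over 12168 genes of its log2 difference from replicates 1 and 2 was 0.378 and 0.383, against 0.135 between those replicates and 0.167 to 0.196 among pairs of the other groups. Values without this library are therefore given for each tested gene of the set in the comparison of ADP-heptose with non-stimulated cells. Between stimuli and for other genes of the pathway they are given only in part.

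Stretches directly upstream of 3 of the genes are shown because their sequence holds a motif of STAT factors or of NF-κB. The STAT motif was TTCNNNGAA, which reads the same on both strands, and the second was the 10-base kappaB motif bound by NF-κB, searched on both strands. In the RefSeq promoter windows of GRCh38.p14 (250 bases before to 50 after each start), the STAT motif was present in 7.66% and the kappaB motif in 11.3% of 35116 windows. Capitals mark the matches. The CISH stretch (chr3:50611832-50612024, minus strand) held 4 STAT motifs, and 7 of all windows (0.0199%) held at least that many. The stretches of IL6ST (chr5:55994994-55995213, minus strand) and SOCS1 (chr16:11256205-11256454, minus strand) each held 1 kappaB motif.
CISH: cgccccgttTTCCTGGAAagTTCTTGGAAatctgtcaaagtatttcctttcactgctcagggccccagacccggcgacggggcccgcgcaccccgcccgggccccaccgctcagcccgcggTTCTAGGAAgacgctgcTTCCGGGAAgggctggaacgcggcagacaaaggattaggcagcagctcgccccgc
IL6ST: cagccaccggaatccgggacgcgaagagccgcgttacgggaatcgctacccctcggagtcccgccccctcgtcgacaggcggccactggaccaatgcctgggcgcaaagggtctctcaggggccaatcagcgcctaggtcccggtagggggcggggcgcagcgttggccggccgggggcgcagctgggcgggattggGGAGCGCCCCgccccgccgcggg
SOCS1: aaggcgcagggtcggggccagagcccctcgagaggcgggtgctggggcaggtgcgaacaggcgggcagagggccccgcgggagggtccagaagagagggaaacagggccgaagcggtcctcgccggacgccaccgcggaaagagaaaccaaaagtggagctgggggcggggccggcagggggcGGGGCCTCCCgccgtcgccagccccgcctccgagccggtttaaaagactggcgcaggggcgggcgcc
The CISH matches began 241, 230, 129 and 112 bases before the RefSeq start, in 2 close pairs, and the kappaB matches 53 bases before that of IL6ST and 67 before that of SOCS1. No match of either motif lay in the windows of SOCS4, SOCS6 or SOCS3, the last with 2 RefSeq starts 848 and 410 bases from the GENCODE start. Neither SOCS3 window (chr17:78360876-78361175 and chr17:78359618-78359917) covered the bases directly upstream of its GENCODE start at 78360077. That stretch was not searched, so nothing is said of motifs there. A match is a description of letters and was not tested as a binding site.

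Which of these genes responded to ADP-heptose was asked first. After ADP-heptose, IL6ST and SOCS3 rose about 1.5-fold and SOCS5 fell to 0.781 of its non-stimulated level. SOCS1, SOCS6 and CISH also separated from the non-stimulated libraries but did not pass the adjusted threshold with edgeR. With DESeq2 all 3 passed (adjusted p 0.0433, 0.0263 and 0.0462). SOCS4 did not differ, and SOCS2 had too few counts to be tested. With edgeR fitted over all 17412 tested genes, 3 of the 7 tested genes passed an adjusted p of 0.05, against 11.9% of all tested genes. Of these 2 were higher (7.48% of all genes) and 1 lower (4.42%). None passed with a 2-fold change, against 3.37% of all genes. The genes of the set were chosen with earlier results of these data known, so counts beside these shares are a description. Values are normalized counts, that is counts scaled to a common library size.

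**Figure D1:**
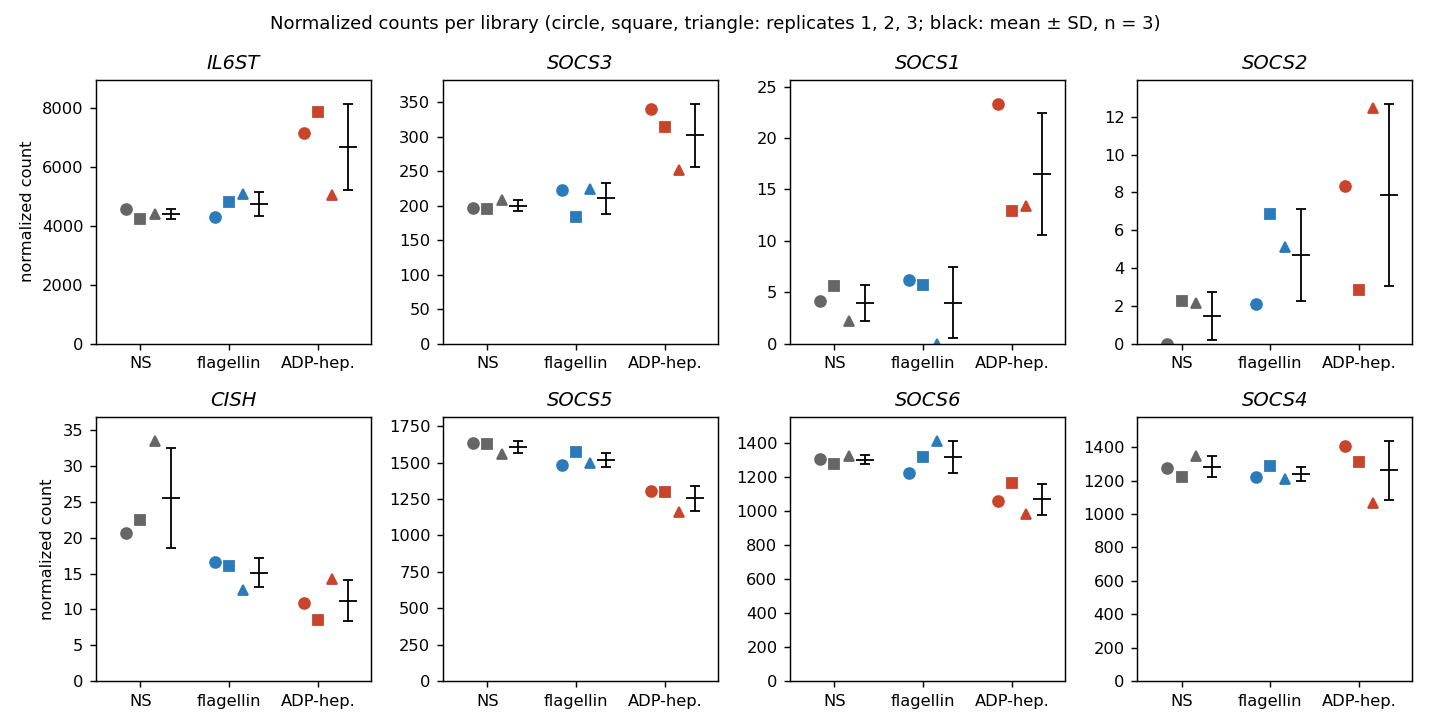
Normalized counts (vertical axes from 0, a scale of its own per gene) of the 8 genes in each library of non-stimulated (NS, grey), flagellin (blue) and ADP-heptose (red) HT-29 cells; circles, squares and triangles are replicates 1, 2 and 3, and black bars are the mean ± SD (n = 3). The ADP-heptose libraries of IL6ST and SOCS3 lie above all non-stimulated ones and those of SOCS5 and SOCS6 below, with IL6ST in ADP-heptose replicate 3 at 5037 close to the flagellin libraries.

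IL6ST (ENSG00000134352, GRCh38 chr5:55935095-55994993, minus strand) was the most abundant of the 8 genes. Its normalized counts were 4557, 4236 and 4397 in the non-stimulated libraries and 7124, 7850 and 5037 after ADP-heptose. All 3 stimulated libraries were higher than every non-stimulated one, but replicate 3 rose far less than the other two. The mean went from 4396 ± 161 to 6670 ± 1460 (SD, n = 3), a log2 fold change of 0.60 (SE 0.133), or 1.52-fold (95% interval 1.24 to 1.86), with an edgeR adjusted p of 0.0109. Without ADP-heptose replicate 3 the log2 fold change was 0.77 (edgeR adjusted p 1.5e-12). The call was lost without non-stimulated replicate 2 (0.57, edgeR adjusted p 0.0555) and when counts were scaled to library totals (0.48, edgeR adjusted p 0.0543).

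Next to IL6ST on the other strand lies IL6ST-DT (ENSG00000227908), a divergent transcript 174 bases away that shares no exon bases with it; the upstream stretch printed above spans the gap between them. Its counts were 28, 24 and 30 in the non-stimulated libraries and 101, 117 and 83 after ADP-heptose. All stimulated libraries were far above the others, replicate 3 included. The rise was 2.73-fold (95% interval 1.88 to 3.98; log2 1.45, SE 0.248, edgeR adjusted p 0.00193) and passed in 18 of 18 alternatives (log2 1.51, edgeR adjusted p 0.000306 without ADP-heptose replicate 3). After flagellin the counts were 25, 21 and 33, with a log2 difference from non-stimulated cells of 0.05 (edgeR adjusted p 1.0). The divergent transcript beside SOCS3, SOCS3-DT, showed no such rise, with 4, 18 and 12 counts without stimulation and 6, 14 and 8 after ADP-heptose. It had too few counts to be tested, as had SOCS2-AS1, with 0 to 4 counts in a library. The SOCS5 pseudogene SOCS5P4 did not pass after ADP-heptose (log2 0.47, edgeR adjusted p 0.584).

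SOCS3 (ENSG00000184557, chr17:78356778-78360077, minus strand), the inhibitor that docks on gp130 itself, stood at 197, 195 and 209 normalized counts in the non-stimulated libraries. After ADP-heptose it stood at 341, 314 and 252. The lowest stimulated library was again replicate 3 and still exceeded the non-stimulated range. The mean rose from 200.3 ± 7.30 to 302 ± 45.7 (SD, n = 3), a log2 fold change of 0.59 (SE 0.139), or 1.51-fold (95% interval 1.22 to 1.86), with an edgeR adjusted p of 0.0146. Without ADP-heptose replicate 3 it was 0.71 (edgeR adjusted p 0.00017). The call was lost without ADP-heptose replicate 1 (edgeR adjusted p 0.0662), non-stimulated replicate 1 (0.0638) or non-stimulated replicate 2 (0.0599), with library totals (0.058), and with offsets for exon length and GC content (0.41, edgeR adjusted p 0.141).

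SOCS1 (ENSG00000185338, chr16:11254405-11256200, minus strand), which inhibits JAKs directly and curbs interferon signalling, was at the edge of detection. Its counts were 4, 5 and 2 in the non-stimulated libraries and 28, 18 and 15 after ADP-heptose. The normalized counts, 4.13, 5.61 and 2.16 against 23.3, 12.9 and 13.3, did not overlap. The fitted fold was 4.07 (95% interval 1.47 to 11.3; log2 2.03, SE 0.673, edgeR p 0.011), but the adjusted p of 0.0761 did not pass, and the gene entered the test only through its ADP-heptose libraries. It passed without ADP-heptose replicate 3 (0.0463), without flagellin replicate 3 (0.043) and with DESeq2 (0.0433). Summed over libraries, 61 reads against 11 gave a ratio per effective library size of 4.15 (95% exact binomial interval 2.16 to 8.74, counting error only).

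SOCS2 (ENSG00000120833, chr12:93569814-93583487, plus strand), which restrains growth hormone signalling, had 0, 2 and 2 reads in the non-stimulated libraries and 10, 4 and 14 after ADP-heptose. The groups did not overlap, on 4 reads against 28 in all. The ratio was 5.24 (95% exact binomial interval 1.83 to 20.5, counting error only). Only 1 library reached the count filter, so the gene was not tested, and without the filter its edgeR adjusted p was 0.203.

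CISH (ENSG00000114737, chr3:50606490-50611831, minus strand), a STAT5 target that restrains STAT5 signalling, moved the other way. Its counts were 20, 20 and 31 in the non-stimulated libraries and 13, 12 and 16 after ADP-heptose, although those libraries were deeper. The normalized counts, 20.6, 22.4 and 33.5 against 10.8, 8.57 and 14.2, did not overlap. The fold was 0.439 (95% interval 0.248 to 0.775; log2 -1.19, SE 0.376, edgeR p 0.00833), with an adjusted p of 0.0624 that did not pass. It passed in 4 of 18 alternatives, among them DESeq2 (0.0462) and library totals (0.0318), but not without ADP-heptose replicate 3 (log2 -1.39, edgeR adjusted p 0.0641). CISH shares 218 exon bases (4.26%) with MAPKAPK3 on the opposite strand, whose own log2 fold change was 0.16 (edgeR adjusted p 0.288), and whether reads were counted by strand is not given in the sources used here.

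SOCS5 (ENSG00000171150, chr2:46698952-46780245, plus strand), linked to turnover of the EGF receptor, fell. Normalized counts were 1634, 1628 and 1559 without stimulation and 1304, 1300 and 1158 after ADP-heptose. The groups were well apart and replicates 1 and 2 were close to each other. The mean went from 1607 ± 41.6 to 1254 ± 83.0 (SD, n = 3), 0.781 of the non-stimulated level (95% interval 0.697 to 0.874; log2 -0.36, SE 0.0746, edgeR adjusted p 0.00743). This call held in 18 of 18 alternatives, with log2 fold changes from -0.49 to -0.30. It was -0.30 without ADP-heptose replicate 3 (edgeR adjusted p 0.000758).

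SOCS6 (ENSG00000170677, chr18:70288901-70330200, plus strand), a regulator of KIT and insulin receptor signalling, lay lower by a similar amount. It had 1305, 1275 and 1324 normalized counts without stimulation and 1061, 1166 and 984 after ADP-heptose. The groups did not overlap. The fold was 0.823 (95% interval 0.723 to 0.936; log2 -0.28, SE 0.0853), with an edgeR adjusted p of 0.0529 that missed the threshold. It passed in 7 of 18 alternatives. Among them were DESeq2 (0.0263), offsets for exon length and GC content (0.0232), and the fits without ADP-heptose replicate 2 (0.0302) and replicate 3 (0.0323).

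SOCS4 (ENSG00000180008, chr14:55027230-55049488, plus strand), another SOCS protein linked to the EGF receptor, ranged from 1224 to 1348 normalized counts without stimulation and from 1066 to 1405 after ADP-heptose. The groups overlapped, with replicate 3 below and replicate 1 above the non-stimulated libraries. The fold was 0.984 (95% interval 0.847 to 1.14, edgeR adjusted p 0.905), and its direction changed without ADP-heptose replicate 3 (log2 0.09) and without non-stimulated replicate 3 (0.01). Counting SOCS2, 7 of the 8 genes had ADP-heptose and non-stimulated libraries that did not overlap, 4 higher and 3 lower, against 30.1% of all tested genes. SOCS1 and SOCS2 are high only in that group, so the count is a description.

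The lower values of ADP-heptose replicate 3 ran through most of these genes. Relative to the mean of replicates 1 and 2, it lay lower by 0.57 (log2) for IL6ST, 0.38 for SOCS3, 0.35 for SOCS4, 0.34 for SOCS1 and 0.17 to 0.18 for SOCS5 and SOCS6, and higher by 0.48 for CISH. Across all genes the same difference fell with exon length, from a median of 0.29 in genes of 68 to 3099 exon bases to -0.24 in those of 7459 to 91667. IL6ST (9292 exon bases) lay below the lower quartile of its length class, -0.45, and SOCS3 (2734 exon bases) below that of the shortest class, 0.06. With offsets that remove the relation with exon length and GC content in each library, the log2 fold change after ADP-heptose was 0.65 for IL6ST (edgeR adjusted p 3.06e-05), -0.30 for SOCS5 (0.00366) and 0.41 for SOCS3 (0.141).

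**Figure D2:**
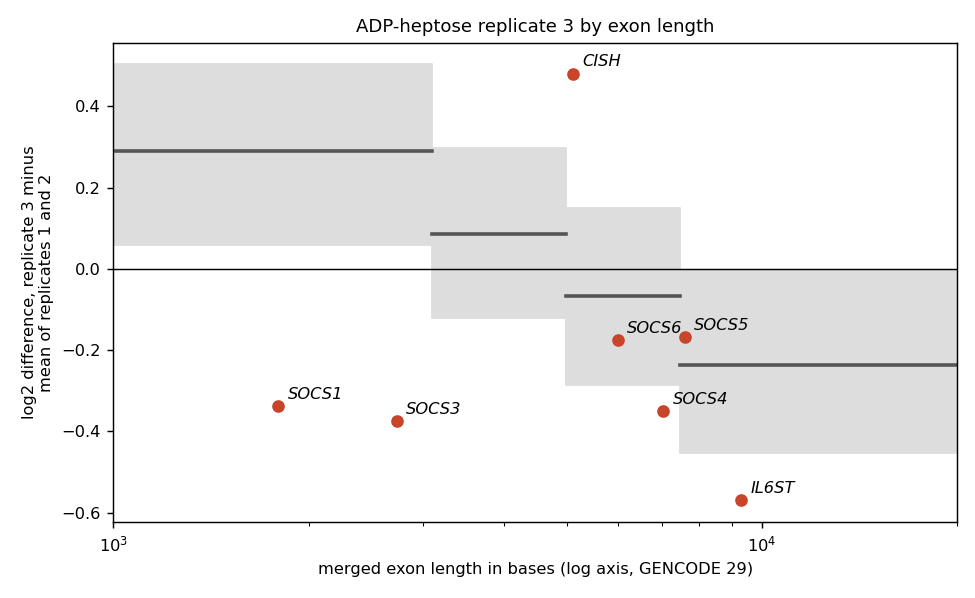
Log2 difference between ADP-heptose replicate 3 and the mean of replicates 1 and 2 (vertical axis) against merged exon length in bases (log axis). Grey boxes span the quartiles and dark lines the medians of all genes in 4 length classes of like size, and red points are 7 of the 8 genes, of which IL6ST lies lowest at -0.57 and CISH highest at 0.48.

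Flagellin was compared with non-stimulated cells in the same fit. None of the 7 tested genes passed an adjusted p of 0.05 with edgeR, against 0.379% of all tested genes. None passed with DESeq2, and none had an unadjusted p under 0.05 in either tool (3.78% of all genes did with edgeR). IL6ST had normalized counts of 4280, 4807 and 5085, which overlapped with the non-stimulated libraries (fold 1.07, 95% interval 0.878 to 1.31). SOCS3 had 223, 184 and 225 (fold 1.05, interval 0.847 to 1.31). These intervals reach up to 1.31-fold. They overlap with the intervals after ADP-heptose, which start at 1.24 for IL6ST and 1.22 for SOCS3. The difference between stimuli is therefore read from the direct comparison below. Libraries of SOCS5 (0.945, interval 0.844 to 1.06), SOCS6 (1.01, interval 0.890 to 1.15) and SOCS4 (0.968, interval 0.832 to 1.13) also overlapped with the non-stimulated ones.

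SOCS1 had 6, 5 and 0 reads after flagellin, the same total of 11 as without stimulation, with an interval too wide to read (log2 0.06, 95% interval -1.72 to 1.84). CISH had 16, 14 and 10 reads. Its flagellin libraries did not overlap with the non-stimulated ones, the only gene of the 8 for which this held (12.9% of all tested genes did), and the fold was 0.596 (95% interval 0.337 to 1.06, edgeR p 0.0719, adjusted p 1.0). SOCS2 had 2, 6 and 4 reads, overlapping with the non-stimulated libraries.

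The stimuli were then set against each other directly, with the same ADP-heptose libraries as before. Again IL6ST, SOCS3 and SOCS5 passed, 3 of the 7 tested genes against 8.16% of all tested genes, 2 of them higher (5.4%) and 1 lower (2.76%). IL6ST was 1.41-fold higher after ADP-heptose than after flagellin (log2 0.50, SE 0.133, edgeR adjusted p 0.0387), although its ADP-heptose replicate 3 (5037) lay below flagellin replicate 3 (5085). SOCS3 was 1.44-fold higher (log2 0.52, SE 0.139, edgeR adjusted p 0.0382) and SOCS5 stood at 0.826 of its flagellin level (log2 -0.28, SE 0.0747, edgeR adjusted p 0.0409). Libraries did not overlap for SOCS3, SOCS5 and SOCS6 and for SOCS1, which entered the test only through its ADP-heptose libraries (27.0% of all tested genes did not overlap).

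These 3 differences between stimuli were near the threshold. Each was called in 6 of 18 alternatives, and each lost its call when any library other than ADP-heptose replicate 3 was left out, with edgeR adjusted p from 0.0675 to 0.176 for IL6ST, 0.0619 to 0.182 for SOCS3 and 0.0664 to 0.204 for SOCS5. Without ADP-heptose replicate 3 all 3 passed (4.72e-11, 0.000711 and 0.0224). SOCS6 (0.812 of the flagellin level, edgeR adjusted p 0.053) and SOCS1 (3.90-fold, edgeR adjusted p 0.109) did not pass, nor did CISH (0.736, interval 0.404 to 1.34) or SOCS4 (1.02, interval 0.874 to 1.18). SOCS6 passed without ADP-heptose replicate 2 (0.0338) or replicate 3 (0.0289).

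**Figure D3:**
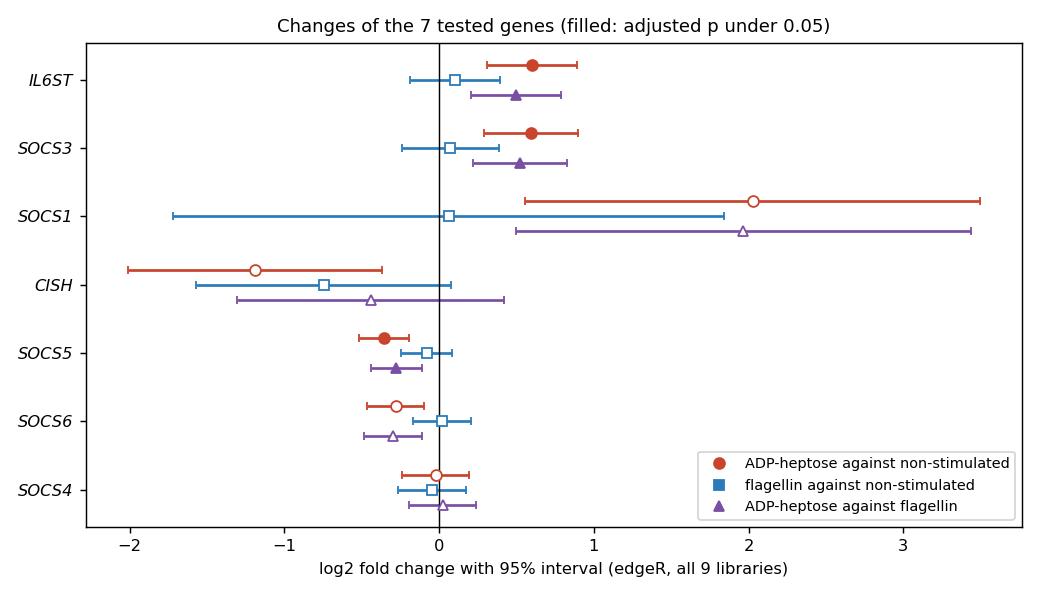
Log2 fold changes (horizontal axis) with 95% intervals from edgeR for the 7 tested genes in 3 comparisons; circles are ADP-heptose and squares flagellin against non-stimulated cells, triangles ADP-heptose against flagellin, and filled symbols passed an adjusted p of 0.05. All flagellin symbols are open, and IL6ST, SOCS3 and SOCS5 are filled in both ADP-heptose comparisons.

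Per kilobase of exon, the order of levels in non-stimulated cells was IL6ST (473 ± 17.3 normalized counts per kb, SD, n = 3), SOCS6 (218 ± 4.19), SOCS5 (212 ± 5.48), SOCS4 (182 ± 8.85), SOCS3 (73.3 ± 2.67), CISH (4.99 ± 1.37), SOCS1 (2.21 ± 0.963) and SOCS2 (0.217 ± 0.188). The ranges of SOCS6 and SOCS5 overlapped, and all other neighbours were apart. Lengths here are those of all annotated exons merged. For SOCS5 this is 7598 bases against 4771 in its longest transcript, and for SOCS6 5984 against 5848. The place of SOCS5 beside SOCS6 and SOCS4 therefore depends on the length used. The 3 genes best known as STAT-induced inhibitors thus stood below the SOCS genes linked to receptor tyrosine kinases, by a wide margin for CISH and SOCS1. After ADP-heptose SOCS3 reached 111 ± 16.7 per kb and SOCS1 9.19 ± 3.29, above CISH at 2.19 ± 0.558. SOCS7, a relative outside the set, had the highest level of the family in non-stimulated cells (566 ± 9.15 per kb) and did not pass after ADP-heptose (log2 -0.08, edgeR adjusted p 0.759).

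The genes whose log2 CPM over the 9 libraries were most like IL6ST among 12168 genes were FAM8A1 (Pearson r 0.988), ZNF644 (0.986) and REL (0.986), the last encoding an NF-κB subunit. For SOCS3 they were NABP1 (0.985), TMEM185B (0.976) and SEC23B (0.971), and for SOCS5 ZFP62 (0.995), CENPC (0.994) and FAM117B (0.994). These values are a description over 9 libraries, of which the ADP-heptose ones stand apart from the rest.

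The rest of the pathway was read from 8 lists of 76 genes, of which 62 were tested. The lists were chosen with earlier results of these data known. Their counts beside the shares of all genes are therefore a description and not a test of the pathway. After ADP-heptose 23 of the 62 rose and 1 fell, where 7.48% and 4.42% of all tested genes did. After flagellin 6 rose, where 0.379% of all tested genes were called, and 21 were higher and 1 lower after ADP-heptose than after flagellin (5.4% and 2.76% of all tested genes). Over the alternatives the genes higher after ADP-heptose numbered 22 to 29 and those lower 0 to 6. Without ADP-heptose replicate 3 they numbered 29 and 2. The 6 calls after flagellin became 7 with fits of 6 libraries and without ADP-heptose replicate 3, and 4 with the replicate block. They came down to 2 without flagellin replicate 1, non-stimulated replicate 1 or non-stimulated replicate 3. Without flagellin replicate 2 or non-stimulated replicate 2 they came down to 3. The lists of kinases, STAT factors, ligase partners and other inhibitors hold few calls each, and their counts are given as a description. Among gp130 cytokines, 3 of 5 tested genes rose after ADP-heptose (median log2 fold change 1.12, against 0.01 over all tested genes). LIF, which signals through gp130 with LIFR, had 1321, 1082 and 1283 normalized counts without stimulation and 6219, 5701 and 4769 after ADP-heptose. The groups were far apart (4.53-fold, 95% interval 3.82 to 5.36, edgeR adjusted p 4.86e-08). Flagellin gave 1.25-fold (95% interval 1.06 to 1.47, edgeR p 0.0126, adjusted p 0.902), which did not pass. The LIF libraries after flagellin did not overlap with the non-stimulated ones (12.9% of all tested genes did not). CLCF1, a ligand of the CNTF receptor, rose 2.17-fold (edgeR adjusted p 3.81e-07), and EBI3, a subunit of interleukin-27, had 2, 8 and 0 reads without stimulation and 51, 55 and 32 after ADP-heptose (log2 3.31, edgeR adjusted p 0.00496). EBI3, like IL2RG among the other receptor chains, entered the test only through its ADP-heptose libraries and had to differ to be counted. IL6 had 0 reads in every library.

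Of the 6 receptor chains that pair with gp130, only 2 had enough counts to test. IL27RA, the interleukin-27 chain, rose 1.54-fold after ADP-heptose (edgeR adjusted p 0.00531), and IL6R did not pass (0.864-fold, edgeR adjusted p 0.315). LIFR, the partner through which LIF signals, had 0 reads in every library, and OSMR had 0 to 9. Among 15 tested chains of other cytokine receptors, 8 rose (median 0.51), such as IFNGR1 (log2 1.73, edgeR adjusted p 2.19e-09), IFNGR2 (2.14, 1.7e-09) and IFNAR2 (3.02, 2.36e-05), chains of the interferon receptors, and IFNGR1 (0.55, 0.000975) and IFNGR2 (0.49, 0.0115) also rose after flagellin. The flagellin call of IFNGR1 held in 18 of 18 alternatives. That of IFNGR2 held in 12 and was lost with the replicate block (0.0716) and without flagellin replicate 1 or 2 or any non-stimulated library (edgeR adjusted p 0.0651 to 0.109).

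Of the 4 JAK kinases, TYK2 rose (log2 0.53, edgeR adjusted p 0.000103), while JAK1 (0.33, 0.088), JAK2 (-0.16, 0.544) and JAK3 (0.13, 0.815) did not pass. Without ADP-heptose replicate 3, 2 of the 4 passed. Of the 7 STAT factors 2 rose. STAT5A, whose target CISH is, had normalized counts of 193, 168 and 141 without stimulation, 524, 546 and 459 after flagellin and 1651, 1611 and 1704 after ADP-heptose. The 3 groups did not overlap (9.88-fold after ADP-heptose, edgeR adjusted p 2.04e-09; 3.05-fold after flagellin, 1.82e-05). STAT6 rose slightly (0.28, edgeR adjusted p 0.0128), a call lost without ADP-heptose replicate 1 (0.0665), non-stimulated replicate 2 (0.0667) or non-stimulated replicate 3 (0.0581), with 6 libraries (0.0634) and with library totals (0.206). STAT3, the main STAT of gp130, did not pass (0.13, edgeR adjusted p 0.454). Without ADP-heptose replicate 3, 3 of the 7 passed.

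None of the 6 partners of the SOCS box in the ubiquitin ligase passed (median 0.09), though 2 did with library totals. Of 11 other inhibitors SH2B3, an adaptor that restrains JAK2, rose (0.70, edgeR adjusted p 0.000875) and PIAS1 fell (-0.29, edgeR adjusted p 0.0362). SH2B3 held in 18 of 18 alternatives, whereas PIAS1 was lost with 6 libraries (0.111), with the replicate block (0.0848) and without any one flagellin library or non-stimulated replicate 2 or 3 (edgeR adjusted p 0.0648 to 0.178). The count of 2 became 4 without ADP-heptose replicate 3 and with offsets for exon length and GC content. Of 12 genes known as STAT3 or STAT5 targets, 7 rose after ADP-heptose (median 0.64) and 3 after flagellin. The largest were IRF1 (log2 3.61, edgeR adjusted p 1.05e-10), BCL3 (3.27, 1.72e-10) and CEBPD (2.63, 3e-09), and IRF1 and BCL3 are also known as targets of NF-κB. The same 3 genes were those that rose after flagellin, by 0.53, 0.58 and 0.68, and all 3 calls depended on single libraries. IRF1 was lost in 6 of 18 alternatives (replicate block 0.126, and without flagellin replicate 1 or 2 or any non-stimulated library, edgeR adjusted p 0.0602 to 0.182). BCL3 was lost without the same 5 libraries (0.0571 to 0.0671), and CEBPD without flagellin replicate 1 (0.0527), non-stimulated replicate 1 (0.0514) or non-stimulated replicate 3 (0.0546). Protein, phosphorylation and STAT activity were not measured in these libraries.

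**Figure D4:**
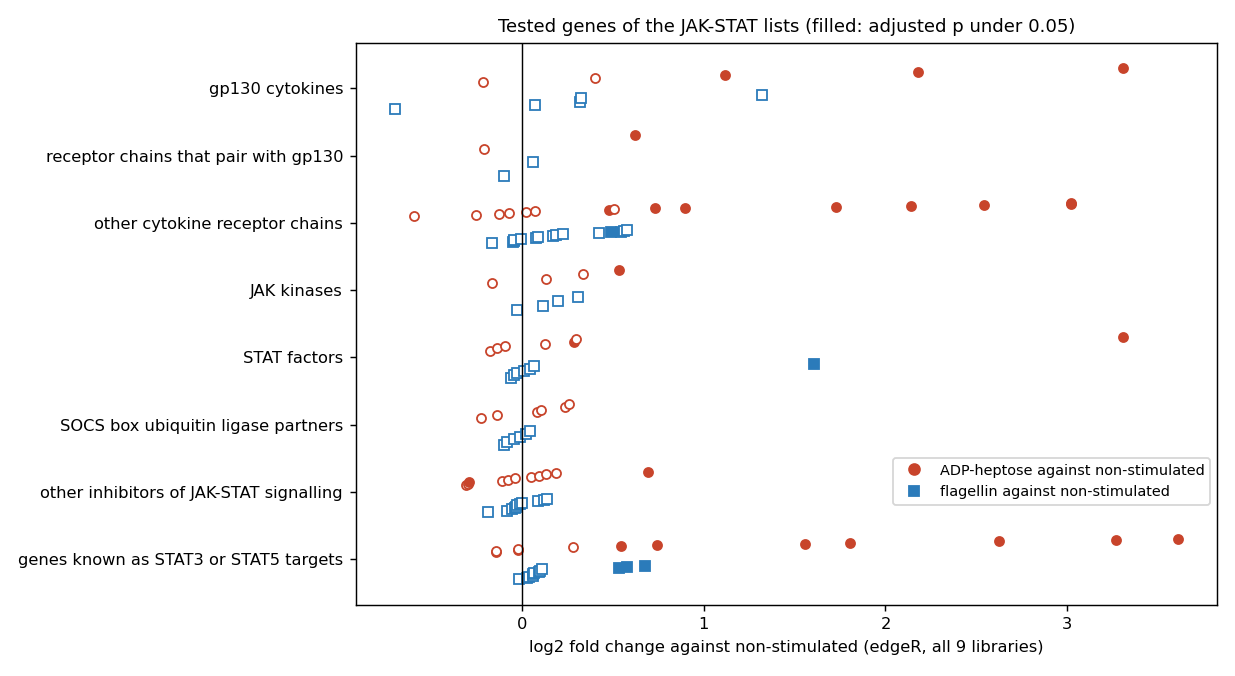
Log2 fold changes against non-stimulated cells (horizontal axis) of the 62 tested genes in 8 JAK-STAT lists after ADP-heptose (red circles) and flagellin (blue squares); filled symbols passed an adjusted p of 0.05. Filled circles number 23 to the right of 0 and 1 to the left, and filled squares 6, all to the right.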

How the data were processed

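RNA of 9 HT-29 libraries was sequenced by the authors as paired reads of 150 bases after poly(A) enrichment, aligned with HISAT2 and assigned to genes with featureCounts. The deposited values are raw counts, 1 column per library, without pooling. Versions, genome build, annotation and strandedness are not given in the sources used here. Of 62972 lines, 232 identifiers were repeated with identical counts and kept once.

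All 9 libraries entered 1 robust quasi-likelihood fit of edgeR 4.0.16 (R 4.3.3; TMM, default filterByExpr, 1 mean per group), with Benjamini-Hochberg adjustment over 17412 genes, which replaced the study's DESeq2 as main test. SE is the absolute log2 fold change divided by the square root of F. The script was tested on simulated data. Alternatives were DESeq2 1.42.0 (its test and its size factors), library totals, no filter, a mean of at least 10 counts, fits of 6 libraries, a replicate block, offsets for exon length and GC content, thinning to 30770448 counts, a 2-fold threshold, and each library left out. The smallest p of an exact two-sided permutation test of 3 against 3 libraries is 0.1, so none is given. Precision of genes under about 30 reads is limited by counting.

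The members and lists were chosen with earlier results of these data known. Named are all members, up to 3 called genes per list with the largest change, JAKs, STAT3, SOCS7 and the gp130 cytokines and chains needed to read them, the 3 genes most like each called member, and neighbours sharing a member's symbol. MAPKAPK3 was named after their values were seen. Exon lengths and GRCh38 positions are from GENCODE release 29, matched by identifier, and promoter windows from RefSeq on GRCh38.p14, which matched 6 of the 8 genes. Printed stretches end before both annotated starts.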

Additional observations from a re-analysis of the deposited data

How the results depend on the processing

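After flagellin none of the 7 genes was called under any alternative. After ADP-heptose against non-stimulated cells, 3 were called, and 6 with DESeq2, 5 after thinning, 0 at 2-fold and 1 to 5 when a library was left out (1 without non-stimulated replicate 2, 5 without ADP-heptose replicate 3). Between stimuli 3 were called, and 4 with DESeq2, 0 with 6 libraries, 0 at 2-fold and 0 to 4 when a library was left out. For all genes 2072 were called after ADP-heptose (DESeq2 2636 of 17412, thinned 1987 of 16932, 586 at 2-fold, 1317 to 3288 with a library left out). After flagellin the all-gene count was 66 (DESeq2 106, no filter 124, 6 libraries 143, 2-fold 39, a library left out 38 to 171). Between stimuli it was 1421 (DESeq2 1895, 6 libraries 1006, offsets 2192, 2-fold 409, a library left out 912 to 2721). Library totals moved the all-gene median (log2) to -0.13 after ADP-heptose and -0.11 between stimuli, and the share of higher calls from 62.8% to 32.7% (offsets 47.4%) and from 66.2% to 40.0% (offsets 52.7%). Directions that turned belonged to differences not called in the main fit. SOCS4 turned after ADP-heptose (offsets 0.0164, a library left out -0.115 to 0.0872) and between stimuli (library totals -0.0903, a library left out -0.0613 to 0.141). SOCS7 turned with a library left out (-0.21 to 0.11 after ADP-heptose, -0.18 to 0.15 between stimuli). Between stimuli its 1 turned fit itself passed (edgeR adjusted p 0.0381). After flagellin the genes that turned were SOCS1 (offsets -0.0331, a library left out -0.40 to 0.57), SOCS3 (thinned -0.0306), SOCS6 (a library left out -0.0383 to 0.0626) and IL6ST-DT (a library left out -0.24 to 0.18). Of 432 list counts under an alternative, 42 moved by more than 1.5 times. The causes were not tested. SOCS1 was filtered out with a mean of 10 counts and after thinning.

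No sign of pairing by replicate number was seen: of 9 same-numbered pairs, 2 had a correlation of deviations over 0.1 (-0.38 to 0.22). Whether same-numbered libraries came from the same experiment is not given in the sources used here. These deviations are taken from means of 3 libraries, so they cannot exclude pairing. With the replicate block, 3 genes were called after ADP-heptose (IL6ST 0.59, edgeR adjusted p 0.0306; SOCS3 0.59, 0.0359; SOCS5 -0.36, 0.0185) and 0 between stimuli, SOCS1 after flagellin was -0.0168, and all-gene calls were 1587, 46 and 1111.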
